A study of Mus musculus with 2 samples.

Results

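Chromosome 10 was examined in the methylation tables of 2 mouse haploid embryonic stem cell lines. It held 63700 of the 1030368 CpGs that had at least 10 reads in both libraries. These CpGs fell in 128 of 2662 fixed bins of 1 Mb, and 3098 of 51142 fixed windows of 1 kb held at least 5 of them. The chromosome was chosen from the measured values, because its mean level in AOS-14 was the highest of 19 autosomes and its ratio of A129-2 to AOS-14 the lowest. Its level, its ratio and every contrast of the lines on it are therefore descriptions that carry no weight as evidence.

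A129-2 has the strain background 129Sv, and AOS-14 has C57BL/6. Both lines came from AG-haploid embryos through cell sorting and were cultured as stem cells, and AG usually stands for androgenetic, with a single chromosome set from sperm. Neither line is a diploid or untreated control for the other. Each line gave 1 library, so line and strain cannot be told apart, no value has a replicate, and every test compares the reads of 2 libraries. The level of a CpG is the share of its reads that stayed unconverted by bisulfite, in percent, and levels of larger units are means over their CpGs.

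Methylation of the cytosine in CpG is copied to the new strand around DNA replication by Dnmt1 and set in the embryo and germ line by the Dnmt3 enzymes. In mouse cells, CpG-dense promoters are mostly free of it, while repeated sequence between genes usually carries it. Embryonic stem cells can lose much of this methylation in culture. A sequence present in many near-identical copies gathers reads from all copies, so its depth and level in a table depend on how reads that match several places are assigned.

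Because repeated spacing of CpGs recurs throughout the results, the sequences come first. Many CpGs of chromosome 10 lie in runs whose distances to each other recur, and the most frequent ones join into a pair of ladders of 11 CpGs each. Ladder A has steps of 35, 7, 7, 5, 4, 29, 24, 15, 2 and 2 bp, and ladder B has steps of 15, 4, 12, 21, 4, 13, 7, 3, 37 and 31 bp. No genome sequence was used here, so the copies on chromosome 10 cannot be printed. Among 32851 RefSeq promoter sequences (GRCm38.p6, 250 bases before to 50 after a gene start), 1 gene held the first 7 steps of ladder A and 1 gene the first 5 steps of ladder B. Both are on other chromosomes and had no compared CpG, so they show the spacing only, with the CpGs of the ladder in capitals. A230004M16Rik lies at chr11:41710094-41710393 on the plus strand, and its ladder runs forward. Gm35240 lies at chr12:77553461-77553760 on the plus strand, and its ladder runs backward.
A230004M16Rik: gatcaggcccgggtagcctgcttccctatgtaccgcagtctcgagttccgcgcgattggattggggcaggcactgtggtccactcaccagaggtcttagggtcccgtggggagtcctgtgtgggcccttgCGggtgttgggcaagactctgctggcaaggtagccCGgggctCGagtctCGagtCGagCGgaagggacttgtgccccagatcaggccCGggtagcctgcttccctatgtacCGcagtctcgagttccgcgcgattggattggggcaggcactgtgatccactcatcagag
Gm35240: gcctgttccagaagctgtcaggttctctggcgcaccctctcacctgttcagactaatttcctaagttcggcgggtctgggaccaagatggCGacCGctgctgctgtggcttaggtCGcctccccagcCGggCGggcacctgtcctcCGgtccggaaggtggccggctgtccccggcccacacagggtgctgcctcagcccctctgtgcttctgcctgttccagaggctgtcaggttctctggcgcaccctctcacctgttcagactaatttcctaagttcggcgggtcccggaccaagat

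In the A230004M16Rik sequence, CpGs 2 and 7 of ladder A stand in CCGG, the site of the enzyme MspI, and the same positions of ladder A were in CCGG on chromosome 10. Shifted by 208 bases against itself, this sequence matched at 90 of 92 bases. On chromosome 10 the CpGs of the densest stretch of ladder A also recurred at 208 bp, a distance held by 346 pairs of CpGs there. Among nearby distances, 215 bp held 76 pairs, 201 bp held 74 and 189 bp held 62. In Gm35240, CpGs 1 and 3 of ladder B stand in CCGG, again as on chromosome 10.

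Measured promoters were not where chromosome 10 was highly methylated. Of its 1649 RefSeq promoter sequences, 431 held at least 5 compared CpGs, and their median level was 2.26% in A129-2 against 2.87% in AOS-14. In AOS-14, 378 of these 431 stood under 5%, and 4 reached 20%. The 4 are printed with their compared CpGs in capitals, because they carry the highest levels among the 431. Promoters with fewer than 5 compared CpGs were left out, so nothing is said of them. None of the 431 held a CpG of the recurrent patterns described below. 1700094J05Rik (chr10:76388765-76389064, plus strand) averaged 30.9% in A129-2 against 41.0% in AOS-14 over 6 CpGs. Gm51786 (chr10:121353651-121353950, plus strand) averaged 15.2% in A129-2 against 34.99% in AOS-14 over 11 CpGs. Gm16254 (chr10:7608626-7608925, minus strand) averaged 14.7% in A129-2 against 31.6% in AOS-14 over 10 CpGs. Srgn (chr10:62527396-62527695, minus strand), the gene of the granule proteoglycan serglycin, averaged 15.5% in A129-2 against 21.6% in AOS-14 over 5 CpGs.
1700094J05Rik: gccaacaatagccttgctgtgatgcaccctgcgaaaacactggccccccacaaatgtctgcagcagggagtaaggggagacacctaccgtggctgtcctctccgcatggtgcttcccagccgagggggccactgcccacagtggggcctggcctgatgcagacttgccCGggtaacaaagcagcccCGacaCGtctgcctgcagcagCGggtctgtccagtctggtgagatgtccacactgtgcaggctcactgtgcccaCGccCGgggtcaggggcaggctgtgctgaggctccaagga
Gm51786: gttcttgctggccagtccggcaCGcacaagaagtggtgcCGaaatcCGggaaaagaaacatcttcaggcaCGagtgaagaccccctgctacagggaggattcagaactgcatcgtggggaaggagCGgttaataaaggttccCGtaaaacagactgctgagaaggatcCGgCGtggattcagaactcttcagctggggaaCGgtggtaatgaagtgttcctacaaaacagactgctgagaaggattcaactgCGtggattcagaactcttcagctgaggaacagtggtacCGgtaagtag
Gm16254: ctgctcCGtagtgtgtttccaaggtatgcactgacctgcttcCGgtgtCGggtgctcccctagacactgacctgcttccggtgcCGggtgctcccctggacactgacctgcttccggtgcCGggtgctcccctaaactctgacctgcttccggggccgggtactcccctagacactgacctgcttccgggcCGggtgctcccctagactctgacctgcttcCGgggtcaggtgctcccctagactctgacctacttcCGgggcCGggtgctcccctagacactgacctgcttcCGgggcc
Srgn: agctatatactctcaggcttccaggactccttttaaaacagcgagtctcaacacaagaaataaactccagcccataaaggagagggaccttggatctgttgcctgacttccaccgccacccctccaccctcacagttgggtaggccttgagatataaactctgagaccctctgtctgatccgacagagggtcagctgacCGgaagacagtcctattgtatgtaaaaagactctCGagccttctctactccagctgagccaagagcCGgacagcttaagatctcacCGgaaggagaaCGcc

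Within these promoters the levels varied widely from CpG to CpG. In 1700094J05Rik, the CpG at base 187 had 56.8% in A129-2 against 59.5% in AOS-14, and the CpG at base 261 had 14.9% in A129-2 against 30.2% in AOS-14. In Srgn, the CpG at base 266 had 36.7% in A129-2 against 44.5% in AOS-14, while the CpG at base 234 had 4.42% in A129-2 against 6.97% in AOS-14. Gm51786 differed most between the lines among the 4. Its CpG at base 172 had 5.93% of 118 reads in A129-2 and 30.3% of 175 reads in AOS-14, and its CpG at base 47 had 16.4% in A129-2 against 15.3% in AOS-14. In Gm16254, the CpG at base 43 had 28.1% in A129-2 against 28.6% in AOS-14, from 64 reads in A129-2 against 49 in AOS-14.

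Chromosome 10 averaged 10.6% in A129-2 against 17.97% in AOS-14, a ratio of A129-2 to AOS-14 of 0.592. The other 18 autosomes together, with 933856 CpGs, averaged 9.26% in A129-2 against 14.5% in AOS-14, a ratio of 0.638. Chromosome 10 thus stood 1.38 points above them in A129-2 and 3.45 points above them in AOS-14. Just behind it in AOS-14 was chromosome 13 at 16.1%, and the next lowest ratio was 0.607 on chromosome 3. The median CpG of chromosome 10 had 7.41% in A129-2 against 12.1% in AOS-14. CpGs at 50% or more made up 1.005% of the chromosome in A129-2 against 8.56% in AOS-14. On the other autosomes they made up 0.963% in A129-2 and 5.63% in AOS-14. Of its CpGs, 66.7% were lower in A129-2, 18.3% were higher and 14.97% were equal, most of the equal ones without a methylated read in either library.

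The label of most methylated autosome depended on how reads were weighed. Weighted by reads, chromosome 10 stood at 11.3% in A129-2, with an exact 95% interval of 11.3 to 11.4. In AOS-14 it stood at 26.4%, with an interval of 26.4 to 26.4. Chromosome 2 was higher at 15.8% in A129-2 against 35.01% in AOS-14. Such intervals cover counting error only, since reads made by PCR are not independent molecules. At the minimum of reads, the 912 CpGs of chromosome 10 with exactly 10 reads in the shallower library averaged 13.3% in A129-2 against 21.4% in AOS-14. The 941 CpGs with 9 reads, which were left out, averaged 13.5% in A129-2 against 21.05% in AOS-14.

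Over the whole series, the tables listed 1699405 CpGs with 153035567 read calls in A129-2 and 1819756 CpGs with 178315194 read calls in AOS-14. Chromosome 10 had 5.96% of the listed autosomal CpGs in A129-2 against 5.83% in AOS-14. It had 14.8% of the autosomal read calls in A129-2 against 13.5% in AOS-14.

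In depth, chromosome 10 stood outside the range of the other autosomes. CpGs with at least 500 reads as the mean of both libraries, called deep here, made up 9.17% of the chromosome and 1.20% of the other autosomes, where the share ran from 0.358% on chromosome 3 to 3.55% on chromosome 12. With 6.39% of the compared autosomal CpGs, chromosome 10 held 34.3% of the deep ones. Its 5839 deep CpGs took 72.0% of its reads in A129-2 against 68.7% in AOS-14, and those of the other autosomes 17.3% in A129-2 and 19.5% in AOS-14. The deepest CpG of chromosome 10 had 45475 reads as the mean of the libraries, while the median CpG had 83 reads in A129-2 against 104 in AOS-14.

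Deep CpGs were more methylated than the rest of the chromosome, and more so in AOS-14. On chromosome 10 they averaged 13.8% in A129-2 against 27.5% in AOS-14, a ratio of 0.501. Deep CpGs of the other autosomes averaged 11.2% in A129-2 against 19.97% in AOS-14, a ratio of 0.563. The 57861 CpGs of chromosome 10 under 500 reads averaged 10.3% in A129-2 against 17.0% in AOS-14, a ratio of 0.607. On this count chromosome 10 was still the highest autosome in AOS-14 and had the lowest ratio, and its excess in AOS-14 was 2.55 points in place of 3.45.

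**Figure D1:**
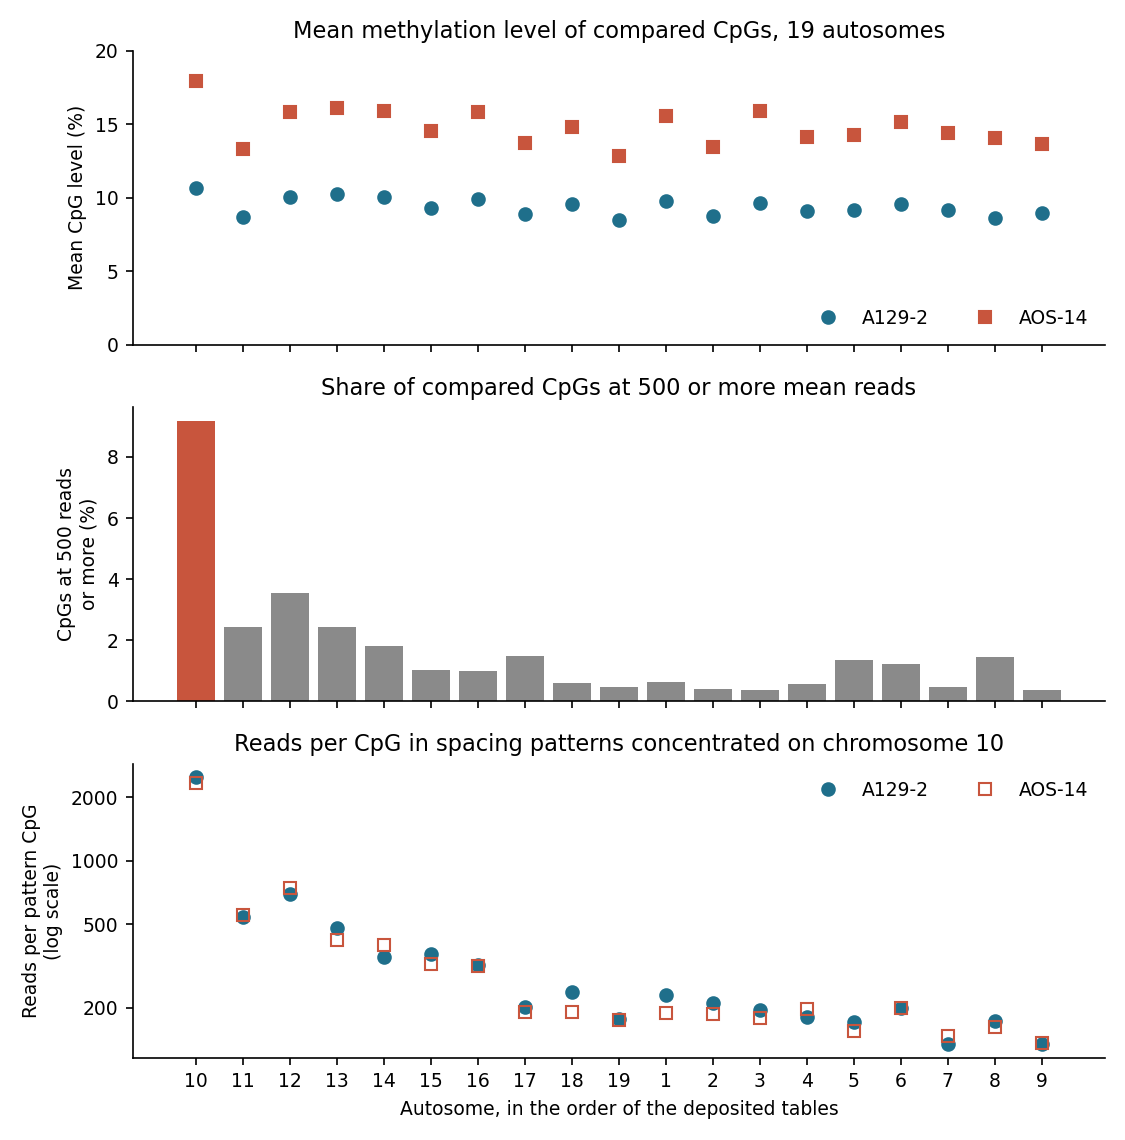
The upper panel plots the mean level of compared CpGs (percent, y axis) in A129-2 (circles) and AOS-14 (squares) for 19 autosomes, the middle panel the share of CpGs at 500 or more mean reads, and the lower panel the reads per CpG in the spacing patterns on a log axis. Chromosome 10, first in the deposited tables, lies highest in each panel, with 10.6% and 17.97% mean level, 9.17% deep CpGs, and 2490.2 and 2346 reads per pattern CpG in A129-2 and AOS-14.

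CpGs in CCGG, the site of MspI, were far more methylated than other CpGs in both libraries. Whether MspI was used is not settled by the labels, which name reduced representation in the title and capture of a panel in the protocol. CCGG CpGs made up 34.9% of the CpGs of chromosome 10 and 33.2% of those of the other autosomes, where chromosome 14 came nearest with 34.4%. CCGG CpGs of chromosome 10 averaged 19.4% in A129-2 against 29.5% in AOS-14, and those of the other autosomes 18.8% in A129-2 and 27.6% in AOS-14. The other CpGs of chromosome 10 averaged 5.93% in A129-2 against 11.8% in AOS-14, a ratio of 0.504. Away from CCGG the other autosomes averaged 4.54% in A129-2 against 8.03% in AOS-14, a ratio of 0.566. The gap between chromosome 10 and the other autosomes in AOS-14 was thus 1.93 points at CCGG and 3.74 points at the other CpGs.

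A class was counted by its share times its mean level on chromosome 10, less the same product on the other autosomes. Counted so in AOS-14, deep CpGs gave 2.28 of the 3.45 points. Deep CpGs outside CCGG alone gave 1.39, the most of 12 classes of depth and CCGG. This count grows with the share of a class at any level, and without deep CpGs the excess was 2.55 points. The deep CpGs outside CCGG made up 6.44% of chromosome 10 and 0.986% of the other autosomes. They averaged 10.9% in A129-2 against 24.3% in AOS-14 on chromosome 10, a ratio of 0.447, and 9.50% in A129-2 and 17.9% in AOS-14 on the other autosomes. At 50 to 99 reads, CCGG CpGs differed little between chromosome 10 (19.5% in A129-2 against 28.9% in AOS-14) and the other autosomes (19.4% in A129-2 and 28.2% in AOS-14). CpGs outside CCGG at 20 to 49 reads averaged 4.62% in A129-2 against 8.74% in AOS-14 on chromosome 10, and 3.70% in A129-2 and 6.37% in AOS-14 elsewhere. In all 12 classes of depth and CCGG the chromosome stood above the other autosomes in both lines, by 0.662 to 6.42 points in AOS-14.

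The excess was then split into a part from unequal shares of classes and a part from unequal levels within classes. With classes of depth alone, unequal shares gave 18.2% of the 3.45 points in AOS-14, and with CCGG alone 9.35%. With both crossed they gave 30.4% in AOS-14 and 39.1% of the 1.38 points in A129-2. Given the class shares of the other autosomes, chromosome 10 would average 10.1% in A129-2 against 16.8% in AOS-14, a ratio of 0.601, still above chromosome 3 at 16.0% in AOS-14 under the same shares. In both lines the larger part of the excess lay within classes of depth and CCGG, where the levels of chromosome 10 were higher.

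**Figure D2:**
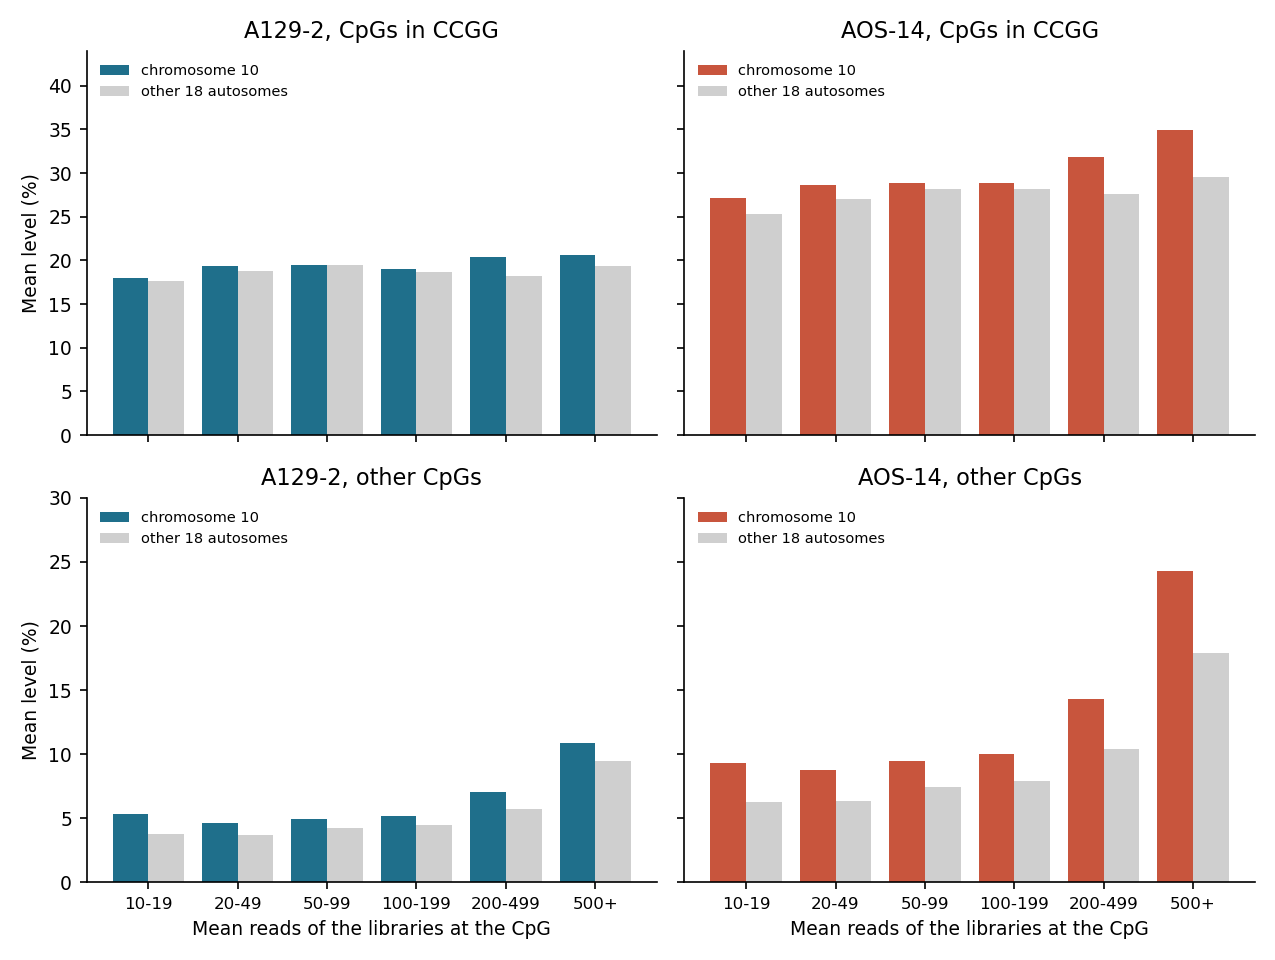
Bars give the mean level (percent, y axis from 0) of CpGs in CCGG (upper row) and other CpGs (lower row), in A129-2 (left) and AOS-14 (right), by the mean reads of both libraries at the CpG (x axis), for chromosome 10 (coloured) and the other 18 autosomes (grey). The widest gap is at other CpGs of 500 or more reads in AOS-14, where chromosome 10 has 24.3% and the other autosomes 17.9%.

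Splitting by position relative to genes put a larger part of the excess into unequal shares than splitting by depth and CCGG did. CpGs outside annotated genes made up 27.02% of chromosome 10, the largest share of any autosome, with chromosome 13 next at 26.5%, and 18.5% of the other autosomes together. CpGs within 1 kb of a gene end made up 39.5% of chromosome 10 and 48.1% of the others. Outside genes, chromosome 10 averaged 16.6% in A129-2 against 30.7% in AOS-14, and the other autosomes 16.9% in A129-2 and 28.2% in AOS-14. Near gene ends it averaged 4.20% in A129-2 against 5.88% in AOS-14, close to the 4.01% in A129-2 and 5.51% in AOS-14 of the others. In gene bodies it averaged 13.4% in A129-2 against 21.97% in AOS-14, and the others 12.6% in A129-2 and 19.9% in AOS-14. Unequal shares of these 3 classes gave 58.9% of the excess in AOS-14 and 78.4% of it in A129-2.

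CpG density separated the chromosome from the others in another way. In windows of 20 to 39 compared CpGs, chromosome 10 averaged 5.78% in A129-2 against 10.3% in AOS-14, a ratio of 0.563, and the other autosomes 3.51% in A129-2 against 4.69% in AOS-14, a ratio of 0.747. In windows of 40 or more, it averaged 3.56% in A129-2 against 6.53% in AOS-14, and the others 2.39% in A129-2 and 2.98% in AOS-14. In windows of 1 to 4 the values were alike, with 17.99% in A129-2 against 29.2% in AOS-14 on chromosome 10 and 18.05% in A129-2 and 28.9% in AOS-14 elsewhere. In windows of 10 to 19, chromosome 10 averaged 10.9% in A129-2 against 19.1% in AOS-14, and the others 8.48% in A129-2 and 13.6% in AOS-14. The gap in AOS-14 was thus 5.55 points at 10 to 19 CpGs, 5.56 at 20 to 39 and 3.54 at 40 or more. It was 1.29 points at 5 to 9 and 0.302 at 1 to 4. Windows of 40 or more include part of a stretch of ladder A described below, so density and recurrent spacing overlap.

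Recurrent spacing was then counted over all compared CpGs. A pattern was defined as 4 successive steps of at most 60 bp between 5 neighbouring compared CpGs. It was counted as concentrated on chromosome 10 where it had at least 50 runs on the autosomes and at least 20% of them on this chromosome, which held 6.23% of all runs. No level entered this definition, but it was set after the data were seen. Because it requires a raised share of runs on chromosome 10, a high share of pattern CpGs there is built in. The definition gave 41 patterns, with 4482 CpGs on chromosome 10 and 10718 on all autosomes, a share of 41.8%. Of the reads at such CpGs, 82.5% lay on chromosome 10 in A129-2 against 81.6% in AOS-14. Counted over all listed CpGs of any depth, the chromosome had 40.2% of the runs of these patterns.

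Pattern CpGs on chromosome 10 were deep, and the lines differed more at them than at the rest of the chromosome. They averaged 14.5% in A129-2 against 33.3% in AOS-14, a ratio of 0.436. The same patterns on the other autosomes averaged 14.9% in A129-2 against 31.2% in AOS-14, a ratio of 0.477. Deep CpGs made up 58.8% of them on chromosome 10 and 23.99% on the other autosomes. Without pattern CpGs, chromosome 10 averaged 10.3% in A129-2 against 16.8% in AOS-14, a ratio of 0.615. It was then still the highest autosome in AOS-14, with chromosome 13 next at 15.8%, but its ratio was lower than that of all but 2 autosomes, chromosomes 3 and 8. Giving every autosome the shares of gene position and pattern found on the other autosomes left 9.62% in A129-2 against 15.5% in AOS-14 on chromosome 10, just over the 15.4% of chromosome 3 in AOS-14. Unequal shares of these classes together gave 70.1% of the excess in AOS-14, and the unequal share of pattern CpGs was set by their definition.

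Reads at pattern CpGs followed the order in which the tables list the chromosomes. Chromosome 10 is listed first and had 2490.2 reads per pattern CpG in A129-2 against 2346 in AOS-14. Chromosomes 11 and 12, listed next, had 539 and 693 in A129-2 and 552 and 742 in AOS-14, and chromosome 9, the last autosome listed, had 134 in A129-2 against 136 in AOS-14. Over 19 autosomes the Spearman correlation of listing order with reads per pattern CpG was -0.937 in A129-2 and -0.879 in AOS-14. It was -0.670 with the share of deep CpGs, -0.411 with the AOS-14 level and 0.0772 with the ratio of the lines. The points share libraries and alignment, and no test was made. How reads with several matching places were assigned is not given in the sources used here, and its part in the values of chromosome 10 was not tested.

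The ladders that these patterns form differed in level and in ratio. Ladder A had 1951 CpGs on chromosome 10, 44.4% of its autosomal total, in 63 bins. They averaged 19.5% ± 12.4 in A129-2 against 58.6% ± 13.8 in AOS-14 (SD over CpGs), a ratio of 0.333. Ladder B had 1591 CpGs on chromosome 10, 62.4% of its total, in 61 bins, and averaged 9.70% ± 6.55 in A129-2 against 11.8% ± 7.62 in AOS-14, a ratio of 0.820. Ladder B was the deeper of them, with 75.2% of its CpGs at 500 reads or more against 43.9% for ladder A. Great depth therefore came with a high and a low level in AOS-14 on the same chromosome.

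The ladders differed from each other in the same direction on the other autosomes. There, ladder A averaged 19.5% in A129-2 against 55.3% in AOS-14 over 2441 CpGs, and ladder B 9.16% in A129-2 against 9.49% in AOS-14 over 959 CpGs. On chromosome 10, ladder A CpGs under 100 reads had 20.03% in A129-2 against 58.7% in AOS-14, and those at 500 reads or more had 19.7% in A129-2 and 59.8% in AOS-14. On chromosome 10 the level of ladder A was thus nearly the same at low and high depth. On the other autosomes ladder A had 21.5% in A129-2 against 52.0% in AOS-14 under 100 reads. At 500 reads or more it had 16.2% in A129-2 against 57.2% in AOS-14 there. Ladder B on chromosome 10 had 12.5% in A129-2 against 13.95% in AOS-14 under 100 reads. At 500 reads or more it had 9.39% in A129-2 against 11.7% in AOS-14. Without ladder A, chromosome 10 averaged 10.4% in A129-2 against 16.7% in AOS-14, and its excess in AOS-14 was 2.27 points. Its ratio was then 0.621, above that of 2 autosomes. Without ladder B it averaged 10.7% in A129-2 against 18.1% in AOS-14, a ratio of 0.588.

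The level changed from position to position along ladder A. On chromosome 10 the first CpG had 7.56% ± 3.75 in A129-2 against 42.4% ± 5.69 in AOS-14 (SD, 167 CpGs). The sixth CpG had 22.6% ± 14.6 in A129-2 against 73.6% ± 11.98 in AOS-14 (208 CpGs), the highest of the ladder in AOS-14. The ninth had 29.8% ± 19.7 in A129-2 against 70.7% ± 12.2 in AOS-14 (136 CpGs), and the tenth 13.3% ± 8.39 in A129-2 and 50.4% ± 11.3 in AOS-14 (121 CpGs). On chromosome 10, 99.4% of CpGs at position 2 and 100.0% at position 7 were in CCGG, against 6.47% at position 3 and 0 at the others, so high levels in AOS-14 were not limited to CCGG. At positions 8 to 11 the AOS-14 means ran from 50.4% to 70.7% on chromosome 10 and from 32.9% to 53.6% on the other autosomes, where 46 to 65 CpGs stood behind each. In ladder B, the CCGG positions 3 and 7 had 15.03% and 19.5% in A129-2 and 20.2% and 22.1% in AOS-14. The first position, also in CCGG, had 11.1% in A129-2 and 12.7% in AOS-14, and the ninth, outside CCGG, had 13.3% in A129-2 and 13.2% in AOS-14. The fifth CpG of ladder B, outside CCGG, had 5.86% in A129-2 against 8.80% in AOS-14.

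**Figure D3:**
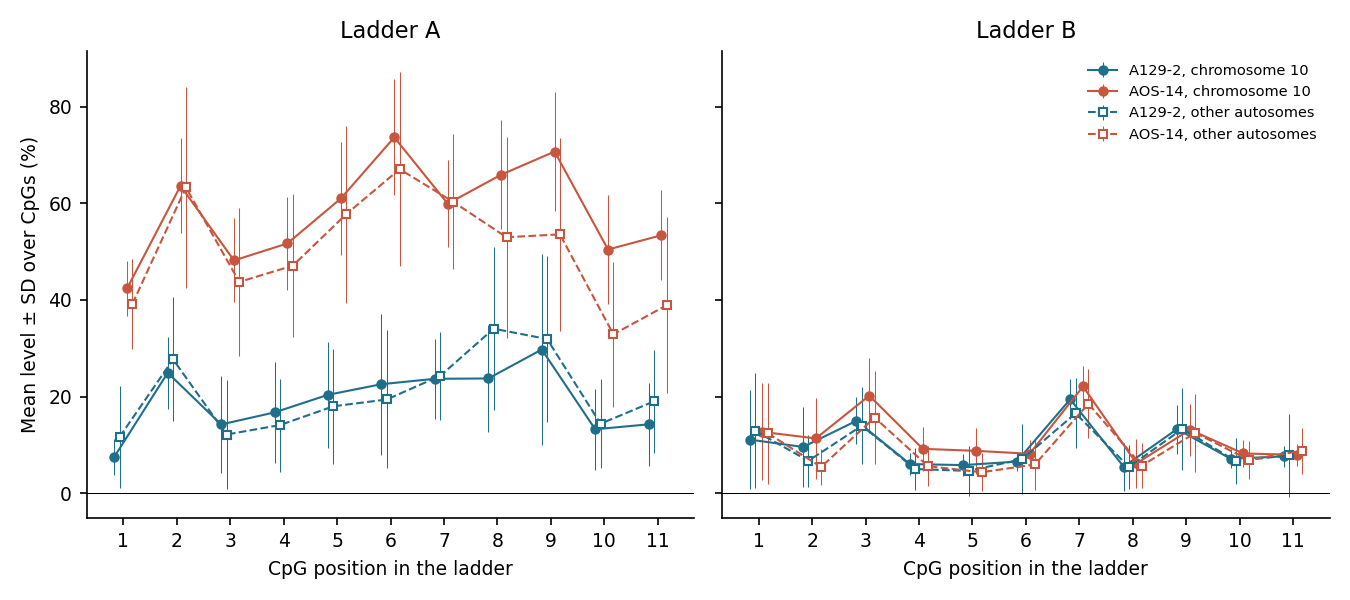
Points give the mean level (percent, y axis) of the CpGs at each of 11 positions (x axis) of ladder A (left) and ladder B (right), in A129-2 and AOS-14, on chromosome 10 (filled, solid lines) and the other autosomes (open, dashed lines), with bars of 1 SD over CpGs. In ladder A the AOS-14 means of chromosome 10 run from 42.4% to 73.6% and the A129-2 means from 7.56% to 29.8%, while in ladder B the means of chromosome 10 stay between 5.53% and 22.1% in both lines.

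By bins, the excess was spread widely with a few peaks. All 128 bins of chromosome 10 were lower in A129-2. Their levels ran from 6.06% to 22.1% in A129-2 and from 9.10% to 54.3% in AOS-14, and their ratios from 0.306 to 0.703. The median bin had 11.5% in A129-2 against 19.1% in AOS-14. On the other autosomes, only the 2282 bins with at least 20 compared CpGs were used, and their median was 10.2% in A129-2 and 16.1% in AOS-14. In AOS-14, 98 bins lay above the mean of the other autosomes and added 4.58 points, and 30 bins lay below it and took away 1.13 points. Bins of at least 30% in AOS-14 made up 12.5% of the bins of chromosome 10 and 14.5% of the others, so very high bins were not more frequent. Bins with a ratio under 0.5 made up 10.2% on chromosome 10 and 5.26% elsewhere.

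The 6 bins that added most held 4.49% of the CpGs of the chromosome and gave 1.01 points, 29.3% of the excess in AOS-14. The bin from 27 to 28 Mb had 515 CpGs at 16.6% in A129-2 against 54.3% in AOS-14. No other autosomal bin with at least 20 compared CpGs was higher in AOS-14 or had a lower ratio. Of the CpGs of the bin from 27 to 28 Mb, 68.9% were in the patterns. The bin from 15 to 16 Mb had 15.6% in A129-2 against 35.5% in AOS-14, with 40.1% pattern CpGs and no coding gene. The bin from 46 to 47 Mb, also without a coding gene, had 15.5% in A129-2 against 41.4% in AOS-14, with 39.3% pattern CpGs. The bin from 35 to 36 Mb, which holds Amd2, a copy of the gene of S-adenosylmethionine decarboxylase, had 16.3% in A129-2 against 42.8% in AOS-14, with 39.8% pattern CpGs.

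The last pair of the 6 differed in kind. The bin from 110 to 111 Mb, which holds the cell cycle gene E2f7 and part of Nav3, had 16.6% in A129-2 against 30.05% in AOS-14, with 27.6% pattern CpGs. The bin from 22 to 23 Mb had 13.5% in A129-2 against 24.99% in AOS-14, with 3.96% pattern CpGs, and it includes the genes Raet1e, Raet1d and H60b of ligands for the NKG2D receptor of killer cells. In this bin the level outside patterns and deep CpGs was 13.5% in A129-2 against 25.03% in AOS-14. In the bin from 27 to 28 Mb that level was 13.6% in A129-2 against 41.0% in AOS-14, from 131 CpGs. Without the 6 bins, chromosome 10 averaged 10.4% in A129-2 against 17.1% in AOS-14 and stayed the highest autosome in AOS-14, with the second lowest ratio, 0.609.

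Most CpGs of the bin from 27 to 28 Mb lay in 1 stretch, chosen after its values were seen. At 27818444 to 27825846 on chromosome 10 (mm10), 8 windows in a row held 397 compared CpGs, 331 of them in ladder A, within 7.40 kb. They averaged 16.4% ± 9.14 in A129-2 against 59.9% ± 12.9 in AOS-14 (SD over CpGs), and all 397 were lower in A129-2. The nearest annotated gene was the noncoding model Gm30228 at 8.73 kb, so the stretch is intergenic. Depth differed along it, with a median of 634 reads in the second window and 83.0 in the last. The second window had 15.7% in A129-2 against 61.0% in AOS-14, and the last had 17.3% in A129-2 and 61.7% in AOS-14, so the levels were alike at both depths. With 0.623% of the CpGs of the chromosome, the stretch gave 8.19% of the excess in AOS-14. Without it, chromosome 10 averaged 10.6% in A129-2 against 17.7% in AOS-14, a ratio of 0.599.

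The 3 bins that took away most lay in gene-rich parts of the chromosome. The bin from 80 to 81 Mb, with 54 coding genes, had 3179 CpGs at 6.43% in A129-2 against 9.57% in AOS-14. The bin from 128 to 129 Mb had 6.06% in A129-2 against 9.10% in AOS-14, and the bin from 81 to 82 Mb had 7.76% in A129-2 and 11.7% in AOS-14, each with 51 coding genes. Together these bins held 5 pattern CpGs, all in the bin from 128 to 129 Mb. Over the 128 bins, the AOS-14 level had a Spearman correlation of -0.665 with the number of compared CpGs, 0.725 with the share of deep CpGs, 0.735 with the share of CCGG and 0.648 with the share of pattern CpGs. The ratio of the lines had one of -0.624 with the deep share and -0.632 with the pattern share. The bins share libraries, depth and base composition, and no test was made.

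**Figure D4:**
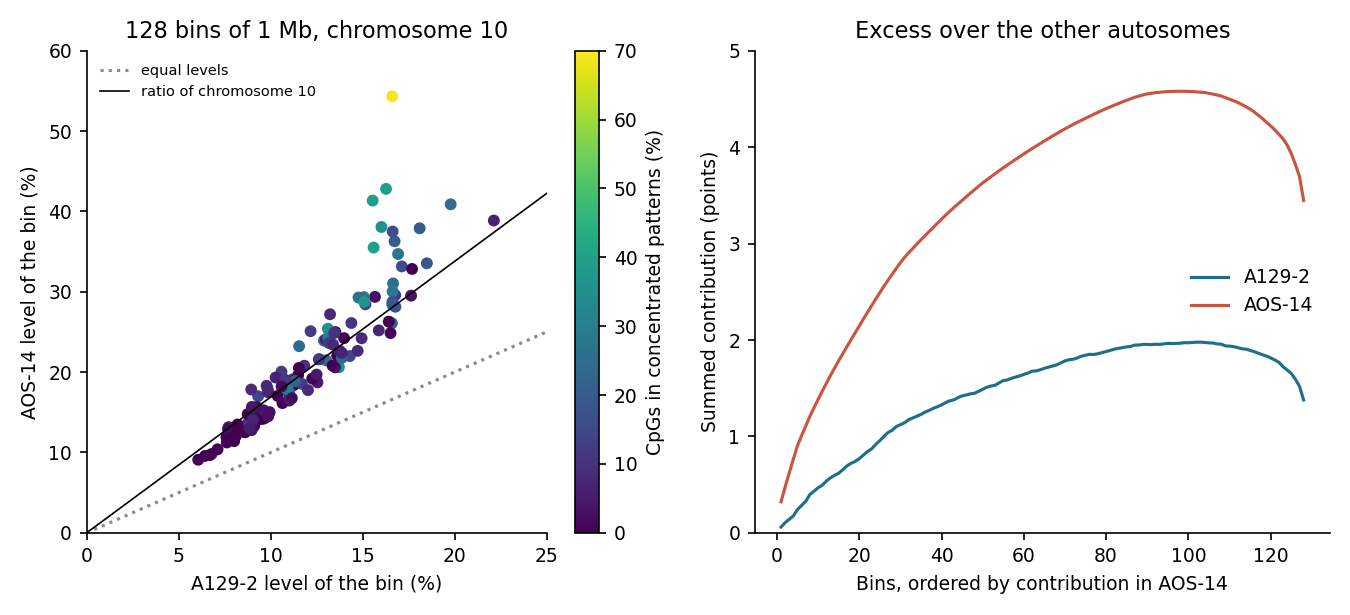
The left panel plots the mean level of each of 128 bins in A129-2 (percent, x axis) and AOS-14 (percent, y axis), coloured by the share of CpGs in patterns, with lines for equal levels and for the ratio of the whole chromosome. The bin at 16.6% and 54.3% stands far above the others. The right panel sums the contributions of the bins to the excess over the other autosomes (points, y axis) in order of size in AOS-14, reaching 1.38 points in A129-2 and 3.45 points in AOS-14.

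From end to end, the stretch from 26 to 52 Mb was the most methylated of 5 stretches in AOS-14. It averaged 12.04% in A129-2 against 23.3% in AOS-14, a ratio of 0.518, and 15.3% of its CpGs were in patterns. The stretch from 78 to 104 Mb was the least methylated, at 9.29% in A129-2 against 14.7% in AOS-14, a ratio of 0.633, with 2.72% of CpGs in patterns. Without pattern and deep CpGs, the stretch from 26 to 52 Mb had 11.3% in A129-2 against 19.5% in AOS-14, and the stretch from 78 to 104 Mb had 8.96% in A129-2 and 13.8% in AOS-14. The mean depth of pattern CpGs was lower in each stretch than in the one before it, with 3054 reads up to 26 Mb and 1887 reads beyond 104 Mb.

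Windows of 1 kb were compared between the lines with Fisher's exact test on summed reads, with Benjamini-Hochberg adjustment over all 51142 windows. A call required that the adjusted p lie under 0.05 and that the mean levels differ by 25 points or more. On chromosome 10, 274 of 3098 windows were lower in A129-2, and over all chromosomes 5.04% of windows were. By the same test 0 were higher, against 0.0137% of all windows, and 29 were higher at an unadjusted p under 0.05, by at most 10.5 points. Since the chromosome was chosen by this contrast, nothing is read from these shares. Differences of -25.02 and -24.96 points lay just inside and just outside the limit of size. The 571 windows with exactly 5 compared CpGs averaged 16.0% in A129-2 against 26.7% in AOS-14, and the 1029 with 4, which were left out, 16.3% in A129-2 and 26.2% in AOS-14.

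The called windows averaged 20.4% in A129-2 against 53.4% in AOS-14, and those not called 11.3% in A129-2 and 17.4% in AOS-14. Of the 274, 73.4% lay outside genes, 59.9% held a deep CpG and 45.3% held pattern CpGs. Of the 2824 windows not called, 30.9% lay outside genes, 16.1% held a deep CpG and 7.51% held pattern CpGs. Of windows with ladder A, 116 of 132 were called, and of those with ladder B, 0 of 123. Windows with ladder A averaged 18.98% in A129-2 against 54.0% in AOS-14, and those with ladder B 10.1% in A129-2 and 12.9% in AOS-14. Among windows with neither ladder, 158 of 2843 were called. A window under 25% in AOS-14 cannot be called lower, and 1086 of the 3098 windows reached that level. Calls therefore follow the AOS-14 level in part, and the 0 calls with ladder B say little. The same limit bears on the shares of called and uncalled windows outside genes, with deep CpGs or with pattern CpGs.

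At a given level in AOS-14, windows of chromosome 10 with and without pattern CpGs differed in ratio, and the direction changed with the level. In the 4 classes between 30% and 70% those with pattern CpGs had the lower ratio, and in the classes under 30% the higher one. The class from 70% held only 1 window with pattern CpGs, with the higher ratio, and 4 without them. The class of 10% to 20% held 155 windows with pattern CpGs, with a ratio of 0.780, and 429 without them, with 0.731. In the class of 50% to 60% in AOS-14, chromosome 10 had 6.68% of its windows and the others 3.44%. There its windows averaged 23.5% in A129-2 against 54.4% in AOS-14, a ratio of 0.432, and those of the others 27.8% in A129-2 against 54.3% in AOS-14, a ratio of 0.511. Split by pattern CpGs, the 81 windows of chromosome 10 with them had a ratio of 0.323 and the 126 without them 0.505. In the class of 20% to 30% the ratios were 0.616 on chromosome 10 and 0.620 on the others, and under 10% they were 0.828 and 0.827. The classes rest on AOS-14 alone, so counting error in that library enters the ratio.

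**Figure D5:**
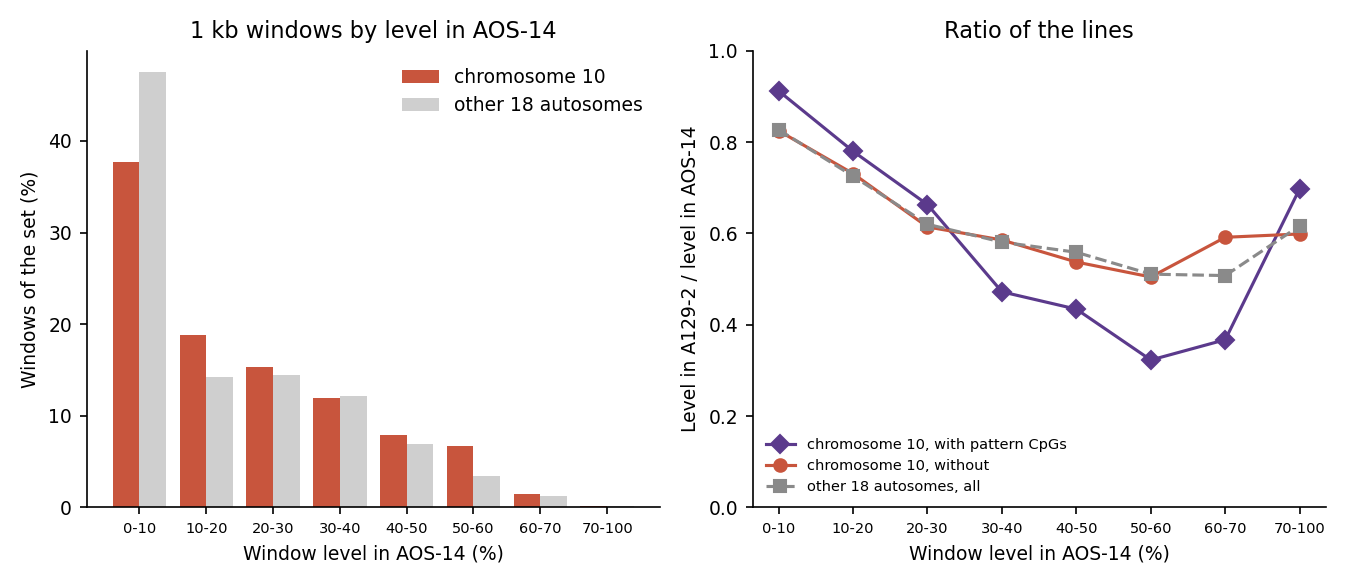
The left panel gives the share of 1 kb windows (percent, y axis) in each class of AOS-14 level (x axis) for chromosome 10 and the other 18 autosomes. The right panel gives the ratio of mean levels, A129-2 over AOS-14, for windows of chromosome 10 with and without pattern CpGs and for all windows of the other autosomes. In the class of 50% to 60% the ratios are 0.323 with patterns, 0.505 without them and 0.511 on the other autosomes, and the class of 70% to 100% holds only 5 windows of chromosome 10.

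The window with the largest difference held no pattern CpG. At 22972743 to 22972861, 3.55 kb from the gene model Gm35126, 5 CpGs averaged 17.3% from 210 reads in A129-2 and 71.7% from 182 reads in AOS-14, with adjusted p = 8.25e-27 in Fisher's exact test. In A129-2 its CpGs ran from 0 to 35.4%, and in AOS-14 from 65.6% to 81.4%. The window was picked for its difference, so the gap between these ranges adds no evidence. The window at 8545004 to 8545815, 26.2 kb from Ust, a sulfotransferase gene, had 14 CpGs at 8.05% in A129-2 against 57.5% in AOS-14, from 2136 and 2471 reads. The window at 5725120 to 5725207, near Gm40595, averaged 13.5% in A129-2 against 63.3% in AOS-14, but from 105 reads in A129-2 against 598 in AOS-14.

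The other 5 of the 8 windows with the largest differences held pattern CpGs, and 4 lay inside genes. In the span of Tafa2, the gene of a secreted brain peptide, 6 CpGs at 123497003 to 123497100 averaged 8.68% in A129-2 against 58.6% in AOS-14. Inside Ros1, a receptor tyrosine kinase gene, 5 CpGs at 52141024 to 52141121 averaged 16.8% in A129-2 against 63.9% in AOS-14, from 113 and 723 reads, and 4 of them were pattern CpGs. The span of Ctnna3, an alpha-catenin gene, held 19 CpGs at 63780017 to 63780363 with 15.2% in A129-2 against 60.8% in AOS-14. Cfap54, a gene of cilia and flagella, held 23 CpGs at 93060130 to 93060509 with 15.6% in A129-2 against 61.0% in AOS-14, of which 18 were pattern CpGs. The eighth window, 32.4 kb from Csl at 99725256 to 99725314, had 6 CpGs, all in patterns, at 13.1% in A129-2 against 58.8% in AOS-14. In all 8 windows, which were picked for their difference, each CpG was lower in A129-2.

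Few windows of chromosome 10 were highly methylated in both lines. In A129-2, 5 windows reached 50%, and in AOS-14, 257 did. The window at 18756891 to 18756943, inside Gm32926, had the highest level in A129-2, at 60.5% against 77.8% in AOS-14, from 536 reads in A129-2 against 644 in AOS-14. A pair of windows near D10Wsu102e, at 83412472 to 83412555 and 83415213 to 83415269, had 50.6% and 53.0% in A129-2 and 75.4% and 78.2% in AOS-14. The window at 83415213 was called, with adjusted p = 2.74e-62 in Fisher's exact test, by a difference of -25.2 points. The window at 118910524 to 118910933, with 12 pattern CpGs among 18, had 51.2% from 6005 reads in A129-2 and 73.4% from 32899 reads in AOS-14. Its summed reads gave 69.4% in A129-2 and 85.5% in AOS-14. Its difference of -22.2 points became -32.8 without pattern CpGs and -30.9 without deep CpGs, past the limit of size. At 6083261 to 6083562, 7 CpGs had 50.2% in A129-2 against 64.5% in AOS-14.

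Gene regions, from 1 kb before a gene to 1 kb after it, were tested in the same way over 23073 regions. On chromosome 10, 13 of 1146 regions were called lower in A129-2, and over all chromosomes 0.914% were. Called higher were 0 by the same Fisher's exact test, against 0.00867% of all regions, and 6 were higher at an unadjusted p under 0.05. Of the 13, 3 carry names other than those of gene models, and these 3 are described. With no limit of size, 915 of the 1146 passed an adjusted p of 0.05 on the lower side and 6 on the higher side, against 76.3% lower and 0.815% higher over all chromosomes. In 6 of these 921 regions the summed reads ran against the mean level of the CpGs.

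Otogl, the gene of an inner ear protein (107760530 to 107912379), averaged 18.5% in A129-2 against 51.5% in AOS-14 over 84 CpGs, 44 of them in patterns. Its other 40 CpGs averaged 18.4% in A129-2 against 47.6% in AOS-14. Cfap54 (92775609 to 93083487) averaged 17.4% in A129-2 against 43.5% in AOS-14 over 92 CpGs, and 16.9% in A129-2 against 33.7% in AOS-14 over the 59 CpGs outside patterns. Clvs2 (33512286 to 33624684), the gene of a lipid-binding protein of endosomes in neurons, averaged 17.4% in A129-2 against 43.1% in AOS-14 over 45 CpGs, and 18.97% in A129-2 against 38.4% in AOS-14 over the 34 outside patterns. Outside patterns, Cfap54 and Clvs2 differed by -16.8 and -19.4 points and were no longer called.

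Long genes had the largest median difference of 7 measured lists of genes. All 37 found on chromosome 10, of 41 listed, passed the test on the lower side in A129-2, and 0 were called at 25 points. Their medians were 12.96% in A129-2 against 20.5% in AOS-14, and those of the 1146 regions 7.91% in A129-2 and 11.3% in AOS-14. Lama2, the gene of a laminin chain of muscle basement membrane, averaged 17.0% in A129-2 against 36.6% in AOS-14. Nav3, a neuron navigator gene, averaged 18.6% in A129-2 against 36.6% in AOS-14, and 77 of its 214 CpGs were in patterns. At the other end, Trhde, the gene of a thyrotropin-releasing hormone degrading enzyme, averaged 5.46% in A129-2 and 7.42% in AOS-14, and Adgrg6, an adhesion receptor gene of Schwann cells, 4.57% in A129-2 and 7.80% in AOS-14. Counts of the lists are set beside the 79.8% of regions that passed on the lower side over the whole chromosome. A region under 25% in AOS-14 cannot be called lower. That level was reached by 238 of the 1146 regions, and by 0 to 9 members of each measured list, so counts of 0 calls say little.

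Genes of the gene-dense middle of the chromosome lie in or next to bins named above for taking away most. Their low level is therefore no separate result. Of 46 measured genes of this list, 40 passed on the lower side in A129-2 and 0 were called. Their medians were 6.13% in A129-2 against 8.35% in AOS-14, and those of 761 coding gene regions of chromosome 10 were 6.59% and 9.25%. Atp5d, a subunit of ATP synthase, had 1.82% in A129-2 against 3.03% in AOS-14, and Hmg20b, a chromatin protein whose difference did not pass the test, had 3.28% in A129-2 and 3.34% in AOS-14. Gna15, a G protein subunit of blood cells, had 25.03% in A129-2 against 35.1% in AOS-14, and Ncln, of the endoplasmic reticulum, had 19.4% in A129-2 and 31.8% in AOS-14. Of 22 developmental regulators, 15 passed on the lower side and 0 were called, with medians of 5.41% in A129-2 against 6.92% in AOS-14. Atoh7, a retinal transcription factor whose difference did not pass, had 1.76% in A129-2 against 2.86% in AOS-14, and Igf1, a growth factor, had 20.5% in A129-2 and 36.2% in AOS-14, from 5 CpGs. Phlda1, which did not pass either, had 2.97% in A129-2 against 2.98% in AOS-14, and Gja1, the gene of connexin 43, had 20.8% in A129-2 and 35.8% in AOS-14.

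Of 16 measured immune genes, 13 passed on the lower side and 0 were called, with medians of 12.96% in A129-2 against 16.2% in AOS-14. Gzmm, a granzyme gene, had 20.8% in A129-2 against 35.6% in AOS-14, and Itgb2, an integrin of leukocytes, had 19.1% in A129-2 and 27.4% in AOS-14. Cd24a had 2.34% in A129-2 and 3.77% in AOS-14, and Icosl 3.15% in A129-2 and 4.55% in AOS-14. Of 8 genes of methylation enzymes and readers, 8 passed on the lower side and 0 were called, with medians of 5.15% in A129-2 against 7.75% in AOS-14. Dnmt3l, the cofactor of the Dnmt3 enzymes, had 14.3% in A129-2 against 24.5% in AOS-14 from 5 CpGs, Dot1l, a histone methyltransferase, had 9.60% in A129-2 and 15.6% in AOS-14, and Tet1, a methylcytosine dioxygenase, had 7.35% in A129-2 and 12.8% in AOS-14. Sirt1, a deacetylase, had 1.91% in A129-2 and 2.37% in AOS-14, and Hdac2 had 3.44% in A129-2 and 5.11% in AOS-14.

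Of 8 pluripotency and germ cell genes, 7 passed on the lower side and 0 were called, with medians of 4.65% in A129-2 against 5.11% in AOS-14. Sycp3, of the meiotic chromosome axis, had 17.5% in A129-2 against 29.1% in AOS-14, and Prdm1, which specifies germ cells, had 13.9% in A129-2 and 19.8% in AOS-14. Tbpl1 had 1.79% in A129-2 against 2.88% in AOS-14, and Hsf2, which passed on its summed reads, had 3.03% in A129-2 and 3.04% in AOS-14. Lin28b, a blocker of let-7 microRNAs, had 3.18% in A129-2 against 5.22% in AOS-14. Of 3 imprinted genes, 2 passed on the lower side and 0 were called, with medians of 3.69% in A129-2 against 5.83% in AOS-14. Plagl1, a zinc finger gene whose promoter is methylated on the maternal copy, had 3.69% in A129-2 against 5.83% in AOS-14, its overlapping transcript Hymai, which did not pass the test, had 3.64% in A129-2 and 5.68% in AOS-14, and Dcn, the gene of the proteoglycan decorin, had 17.1% in A129-2 and 28.6% in AOS-14. The 67 trace amine and olfactory receptor genes of the chromosome had 0 measured members.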

How the data were processed

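Both libraries are of genomic DNA, captured with a mouse methylation panel, treated with bisulfite and sequenced as paired reads, per the labels' protocols. The titles name reduced representation instead, and this was not settled. The authors aligned reads with BSMAP to mm10, per the submitters' processing notes; its version and how reads were trimmed, deduplicated or placed when several positions matched is not given in the sources used here. The deposited tables give each CpG's methylated and total read count, and the deposited fraction is their ratio, which matched within 0.001 at every CpG listed. A CpG was compared where each library had 10 reads or more.

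Levels were averaged over CpGs with Python 3.11.15, pandas 2.3.3 and numpy 2.4.6. Read sums of windows and gene regions were compared with a two-sided Fisher's exact test (scipy 1.17.1, numba 0.67.0), tested on simulated data, with Benjamini-Hochberg adjustment over all units. Excesses were split into shares of classes and levels within classes, averaging both orders of the split. Exact intervals are Clopper-Pearson. Figures used matplotlib 3.10.9. RefSeq annotation of GRCm38.p6 gave genes and promoters, and promoters of chromosome 18 were not searched for ladders.

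Named are the 6 bins adding most and 3 taking away most, the 8 called windows with the largest difference, the 5 highest windows in each line, called genes other than gene models, and the extremes of each list. Members, lists and rules were chosen with earlier results of these data known. Alternatives changed the read minimum, the CpGs kept, weights, window size rules and the size of a call.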

Additional observations from a re-analysis of the deposited data

How the results depend on the processing

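No paired analysis was possible because each line has 1 library and the labels give no replicate numbers, and no library could be left out. The excess of chromosome 10 in AOS-14 (3.45 points) and its ratio of A129-2 to AOS-14 (0.592) moved to 3.50 and 0.597 with a minimum of 5 reads, 3.61 and 0.586 with 20 reads, 3.74 and 0.504 outside CCGG, and 2.55 and 0.607 without CpGs of 500 or more reads. Weighted by reads they were 9.005 and 0.430, as means over windows 2.75 and 0.588, and as means over bins 2.18 and 0.571. They were 3.15 and 0.599 without the top bin, 2.55 and 0.609 without 6 bins, and 2.24 and 0.601 with classes of depth and CCGG reweighted. Chosen after seeing the data, 3 more gave 2.40 and 0.615 without patterns, 0.995 and 0.620 with gene position and pattern reweighted, and 2.13 and 0.624 without CpGs of 100 or more reads. In 12 of these 13 alternatives chromosome 10 was the highest autosome in AOS-14, and in 9 it had the lowest ratio. The exception in level was weighting by reads, where chromosome 2 was higher. The share of the excess from depth and CCGG was 14.02% in place of 30.4% without CpGs of 500 or more reads, and 29.5% to 32.1% under 3 others, all chosen after seeing the data. Windows called lower numbered 139 in place of 274 with at least 10 CpGs, of 1476 tested, and 440 at 20 points, and 203 to 305 under 7 other alternatives, with 228 without patterns, an alternative chosen after seeing the data. The number of windows tested changed too, so these counts are not shares. At a minimum of 5 reads, 8.20% of 3319 windows of chromosome 10 were called lower, against 5.25% of all windows. With 20 reads it was 9.93% of 2770, against 4.83% of all. Gene regions called lower numbered 22 in place of 13 with a minimum of 5 reads and 8 without patterns, and 9 to 12 under 3 others. Called higher were 0 windows and 0 gene regions under each. Clvs2 missed the size limit at a minimum of 20 reads (-24.7 points). The cause was not tested in any case. Depth limits single CpGs near 10 reads, and intervals cover counting error only.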

Other observations

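CpGs of chromosome 10 with at least 10 reads in 1 library alone entered no comparison. There were 1731 such CpGs in A129-2, 2.65% of its CpGs of that depth on the chromosome, with a mean level of 12.6%. In AOS-14 there were 5694, or 8.21%, with a mean level of 22.6%. On the other autosomes 32181 such CpGs, or 3.33%, averaged 10.7% in A129-2, and 124297, or 11.7%, averaged 20.6% in AOS-14. Both shares were thus smaller on chromosome 10.

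Among the 1941 windows of chromosome 10 that passed Fisher's exact test at an adjusted p of 0.05, summed reads ran against the mean level of the CpGs in 11, and 0 of these were called. Between the levels of the lines at its compared CpGs, Pearson's r was 0.809, a description over CpGs that share libraries. The X chromosome averaged 13.3% in A129-2 against 22.4% in AOS-14, above chromosome 10 in both lines, with a ratio of 0.593.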
